A study of Mus musculus with 12 samples.

Results

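The mitochondrial ribosomal protein genes of tibialis anterior, a fast muscle of the lower leg, were read in poly(A) RNA sequencing libraries of mice with and without dystrophin mutations. Members were the genes whose symbol is Mrpl or Mrps with a number, and they had to reach 1 FPKM (fragments scaled by gene length and by reads in the library) in at least 4 of 12 libraries. Of 30239 genes in the table, 78 carried such a symbol, 49 of the large subunit (Mrpl) and 29 of the small subunit (Mrps). All 78 passed, each with at least 1 FPKM in every library, and 5 pseudogene rows with longer names were not members. The filter left 11376 genes in all.

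There were 3 genotypes with 4 libraries each, all from muscle of untreated mice aged 6 months. DMD-Null mice are named for loss of the dystrophin gene, and the labels do not give the allele. The mdx mice, long used to model Duchenne muscular dystrophy, have a premature stop codon in that gene. WT mice served as controls. The strain and sex of the mice are not given in the labels, nor is it said that the replicates were separate animals, and the p-values below refer to the spread among these libraries, which may be partly technical.

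The mitochondrial ribosome, or mitoribosome, translates the few messages of the mitochondrial genome, all of which encode subunits of the respiratory chain and ATP synthase. Its ribosomal RNAs are made inside the organelle, while every one of its proteins is encoded in the nucleus, made in the cytosol and imported. Many of these proteins have a counterpart in bacterial ribosomes, and the others are particular to mitochondria. In muscle fibres, which are rich in mitochondria, building the respiratory chain draws on both nuclear and mitochondrial genes. Some symbols mislead, since Mrps30 and Mrps18a belong to the large subunit by structure, and Mrps36 is a component of the alpha-ketoglutarate dehydrogenase complex.

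Promoters of genes for mitochondrial proteins are known targets of nuclear respiratory factor 1 (NRF-1) and of ETS-family factors such as GABP, which is also called NRF-2. Of the 78 genes, 69 had an entry in the RefSeq promoter table (GRCm38.p6). The 250 bases before each listed gene start were searched on both strands for an NRF-1 motif, GCGC then any base then TGCGC, and for CCGGAAGT, an ETS motif. The motifs share no position in these promoters, because no member held both. The NRF-1 letters stood in 10 of 69 members (14.5%), against 9.66% of the tested genes and 4.23% of all genes in the table. The ETS letters also stood in 10 of 69 (14.5%), against 6.7% of the tested genes and 3.23% of all genes. NRF-1 matches fell on 9 of 43 large-subunit and 1 of 26 small-subunit genes, and ETS matches on 6 and 4. The 3 promoters below are shown as examples of a single NRF-1 match, a double match and an ETS match. The first 2 belong to genes that were lower in a mutant and the third to one that was not, which is no measure of the members as a set. NRF-1 matches stood in 13.2% of the members that fell in DMD-Null and 16.1% of the others, and in 12.8% and 16.7% for mdx. ETS matches stood in 10.5% and 19.4% for DMD-Null, and in 12.8% and 16.7% for mdx. These differences were not tested. Each is printed 5′ to 3′ on the strand of the gene, with the matched letters in capitals, and stops where either annotation places the first exon.
Mrpl12: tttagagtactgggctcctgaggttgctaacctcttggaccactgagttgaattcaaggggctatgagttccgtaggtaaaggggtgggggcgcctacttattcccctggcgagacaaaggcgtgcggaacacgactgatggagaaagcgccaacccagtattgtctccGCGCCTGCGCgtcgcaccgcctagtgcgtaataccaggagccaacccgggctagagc
Mrpl45: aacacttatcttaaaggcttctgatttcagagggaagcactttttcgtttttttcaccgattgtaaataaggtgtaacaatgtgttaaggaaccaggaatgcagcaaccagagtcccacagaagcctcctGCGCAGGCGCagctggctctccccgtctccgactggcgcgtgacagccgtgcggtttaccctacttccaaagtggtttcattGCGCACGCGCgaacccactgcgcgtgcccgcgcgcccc
Mrps22: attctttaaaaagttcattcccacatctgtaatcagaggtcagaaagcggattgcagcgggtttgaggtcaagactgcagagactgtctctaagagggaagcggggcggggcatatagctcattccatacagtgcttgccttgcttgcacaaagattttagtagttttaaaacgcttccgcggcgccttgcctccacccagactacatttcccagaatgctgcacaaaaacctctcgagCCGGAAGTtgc
The Mrpl12 stretch is chr11:120484387-120484612 on the plus strand, and its match starts 81 bases before the RefSeq gene start. The Mrpl45 stretch is chr11:97315466-97315715 on the plus strand, with matches that start 120 and 38 bases before it. The Mrps22 stretch is chr9:98601680-98601929 on the minus strand, with a match that starts 11 bases before it. A match describes letters in the window and not binding.

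Before any result, the libraries themselves were compared. Total counts were 60693078 to 64554184 in DMD-Null, 64120795 to 68054627 in mdx and 61145904 to 63073041 in WT. Dmd, the mutated gene, had 164, 71, 111 and 114 reads in DMD-Null, 1062, 713, 869 and 1254 in mdx, and 542, 3597, 412 and 2446 in WT 1 to 4. DMD-Null had the fewest in every library, and WT 1 and WT 3 had fewer than any mdx library. All 10 muscle fibre markers, among them Ckm, Acta1 and Myh4, had reads in every genotype. WT 1 and WT 3 stood apart from the other libraries. Their scaling factors (edgeR's TMM, the trimmed mean of M-values) were 0.694 and 0.698, against 0.951 to 1.18 elsewhere. Their reads leaned to genes of high GC content, with rank correlations (Spearman's rho) of GC content with the deviation of each gene in that library of 0.655 and 0.604. DMD-Null 4 leaned the same way (0.449), and the other 9 had a rho of -0.579 to -0.0935. Results that use WT are therefore given with and without WT 1 and WT 3.

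The mitoribosomal transcripts as a whole were lowest in the mutants and highest in WT 1 and WT 3. Levels are CPM, counts per 1e6 reads after TMM scaling. Summed over the 49 large-subunit genes, the level was 1916, 1703, 1643 and 2003 CPM in DMD-Null 1 to 4, 1751, 1718, 1833 and 1758 CPM in mdx 1 to 4, and 3026, 2167, 3541 and 2279 CPM in WT 1 to 4. All 8 mutant sums lay below all 4 WT sums, and the sums of WT 2 and WT 4 were much nearer to the mutants than those of WT 1 and WT 3. The means were 1816 ± 170.8 CPM in DMD-Null, 1765 ± 48.5 CPM in mdx and 2754 ± 649 CPM in WT (SD, n = 4 each). The 29 small-subunit genes summed to 902.1, 825.6, 792.8 and 986.2 CPM in DMD-Null, to 873.6, 871.7, 908.7 and 838.3 CPM in mdx, and to 1644, 1009, 1810 and 1091 CPM in WT. Here too no mutant library reached the lowest WT library. The balance of the subunits hardly moved, since the summed FPKM of the large subunit was 1.82 to 2.05 times that of the small one in every library.

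**Figure D1:**
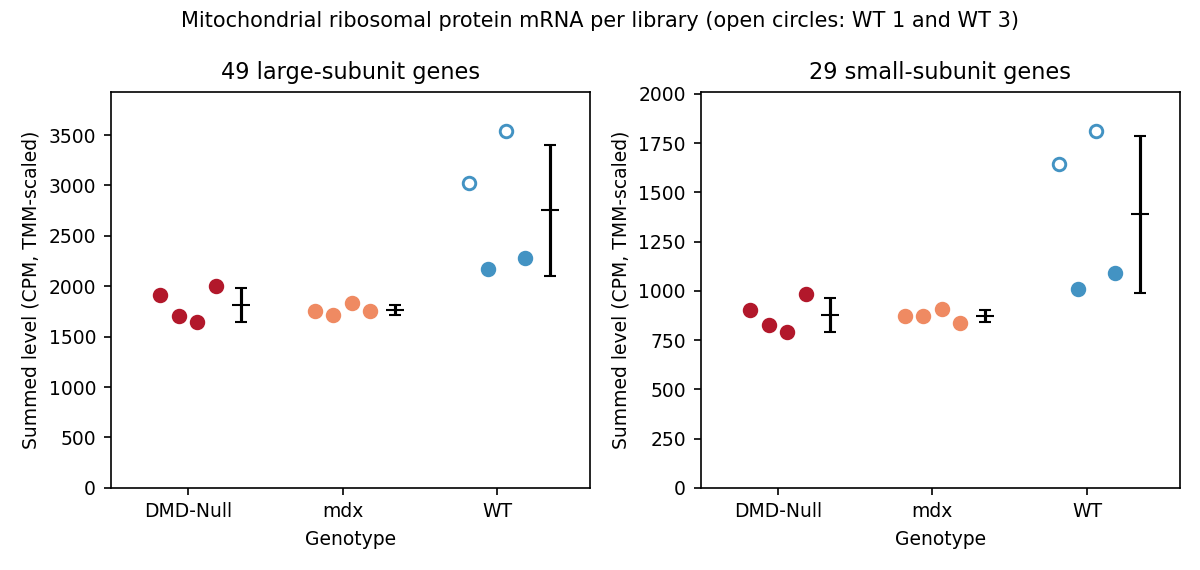
Summed level of the 49 large-subunit (left) and 29 small-subunit (right) genes in each library, in TMM-scaled CPM on axes that start at 0. Each circle is 1 library, open circles are WT 1 and WT 3, and bars give the mean ± SD of 4 libraries. The DMD-Null and mdx sums lie below all 4 WT sums, with WT 1 and WT 3 farthest above. With library totals in place of TMM the groups overlap.

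That order depends on the scaling. When counts were divided by library totals alone, the large-subunit sums were 2011 ± 82.6 CPM in DMD-Null, 1954 ± 94.0 CPM in mdx and 2202 ± 186 CPM in WT (SD, n = 4), and the groups overlapped. The median log2 fold change of all tested genes against WT was then 0.44 in DMD-Null and 0.42 in mdx, where with TMM it was 0.01 and 0.00. Relative to that median, the large-subunit genes had a median log2 fold change of -0.51 in both mutants with library totals, against -0.54 in DMD-Null and -0.58 in mdx with TMM. The members were thus lower relative to the typical tested gene. A change of scaling moves every gene of a library by the same factor, so similar values under both scalings were bound to follow and add no support. A lower share of all reads was small with library totals, with medians over the 78 genes of -0.07 in DMD-Null and -0.08 in mdx. With library totals alone, 9 of the 78 genes fell in DMD-Null (5.05% of all tested genes) and 15 in mdx (6.21%), while Mrps31 rose in DMD-Null (29.5% of all tested genes rose) and Mrps10 and Mrps30 rose in mdx (29.4%). In bulk tissue, fewer cells of a type and less RNA per cell cannot be told apart.

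Levels between genes were compared in FPKM, which accounts for length. Mean FPKM over the 12 libraries ran from 1.99 for Mrps35 to 73.3 for Mrpl12. Mrpl12, which forms the stalk of the large subunit that recruits translation factors and also binds the mitochondrial RNA polymerase, was followed by Mrps21 at 61.2 FPKM, Mrpl2 at 55.2 FPKM and Mrps28 at 43.6 FPKM. At the low end stood Mrps10 at 2.68 FPKM and Mrpl32 at 2.67 FPKM, whose protein is cut by an inner-membrane protease before it enters the ribosome. The median gene had 14.2 FPKM in the large subunit and 7.91 FPKM in the small subunit. Within a genotype the genes were steadiest in mdx, where the median SD of log2 CPM over the 78 genes was 0.0923, against 0.165 in DMD-Null and 0.366 in WT. The median SD over all tested genes, taken on log2(CPM + 0.1), was 0.141 in mdx, 0.217 in DMD-Null and 0.478 in WT.

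**Figure D2:**
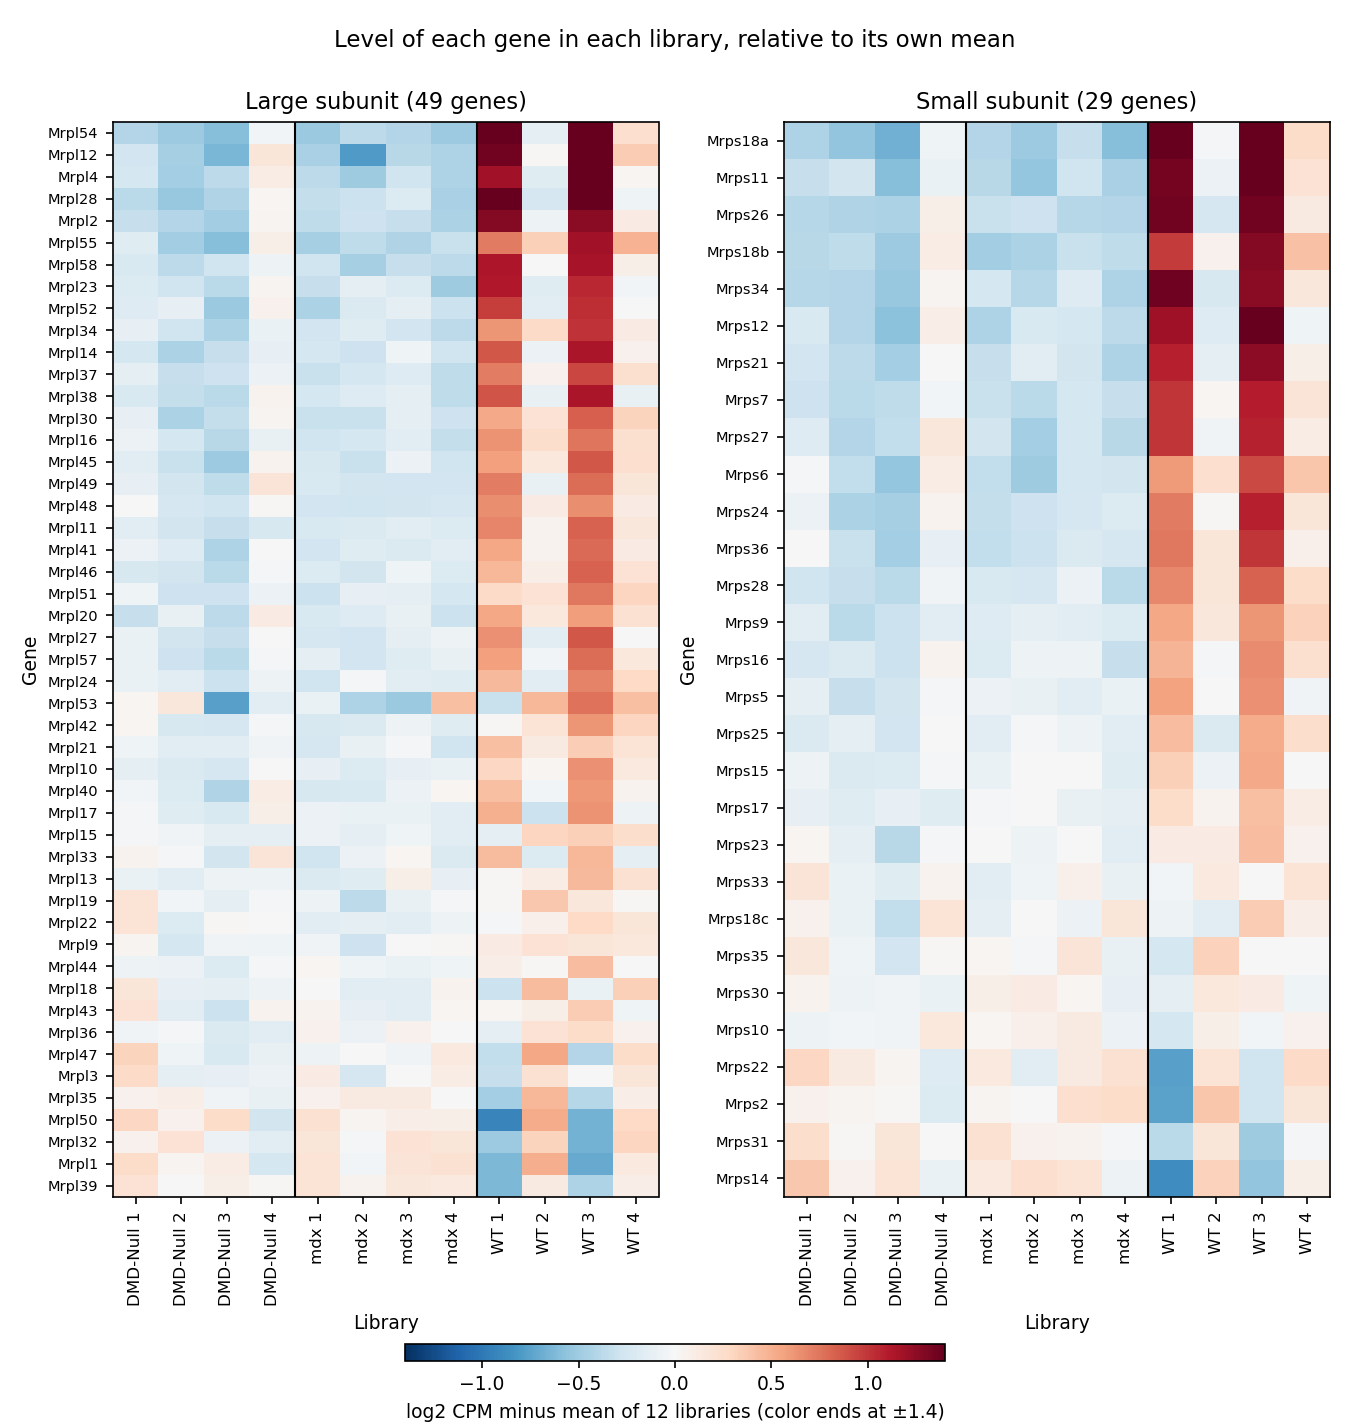
Log2 of the TMM-scaled CPM of each of the 78 genes in each library minus the gene's mean over the 12 libraries, with genes ordered by their log2 fold change in mdx against WT. Red is above and blue below the gene's mean; the large subunit is on the left and the small subunit on the right, by symbol. WT 1 and WT 3 are the reddest columns for most of the upper genes and the bluest for the lowest few, while the 8 mutant libraries differ little from each other.

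The contrast of DMD-Null with WT asks how muscle without dystrophin differs from healthy muscle. In DMD-Null, 26 of 49 large-subunit genes and 17 of 29 small-subunit genes fell and none rose, by edgeR's quasi-likelihood test over all tested genes at an adjusted p under 0.05. The share of all tested genes that fell was 15.6%, and 12.9% rose. The median log2 fold change was -0.52 in either subunit, and 68 of the 78 values were negative. With WT 1 and WT 3 left out, 12 large-subunit and 5 small-subunit genes fell, against 9.84% of all tested genes, and the medians were -0.29 and -0.24. In that fit 75 of the 78 values were negative. Of the genes that fell with all 12 libraries, 15 also fell without WT 1 and WT 3. Leaving out single libraries moved the count by more than 1.5 times in several cases: 15 large-subunit and 9 small-subunit genes fell without DMD-Null 1, 11 and 6 without DMD-Null 2, 9 and 6 without DMD-Null 3, and 12 and 8 without WT 3, while 9 small-subunit genes fell without WT 1 and 2 rose without WT 2. The count over all tested genes moved as well, with 988, 784, 783, 950 and 1130 genes lower without DMD-Null 1, DMD-Null 2, DMD-Null 3, WT 3 and WT 1, against 1770 with every library, and with 3204 higher without WT 2, against 1471.

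The contrast of mdx with WT asks the same of the established model. In mdx, 29 of 49 large-subunit and 15 of 29 small-subunit genes fell and none rose, while 20.1% of all tested genes fell and 15% rose. The medians were -0.57 for the large and -0.52 for the small subunit, and 67 of the 78 values were negative. When WT 1 and WT 3 were left out, 16 large-subunit and 8 small-subunit genes fell (10.9% of all tested genes), with medians of -0.32 and -0.25 and 76 of the 78 values negative. Of the genes that fell with all 12 libraries, 22 also fell in this fit. The large-subunit count was 17 without mdx 1, 19 without mdx 3, 16 without mdx 4 and 17 without WT 3, and 1 gene of each subunit rose without WT 2. Over all tested genes, 1214, 1269, 1175 and 1230 fell without mdx 1, mdx 3, mdx 4 and WT 3, against 2292 with every library, and 3390 rose without WT 2, against 1709. Both comparisons use the same WT libraries, so their values are not independent of each other.

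Without regard to any test, 28 of the 78 genes had every DMD-Null library below every WT library (10.1% of all tested genes), and 43 had every mdx library below every WT library (14.7%). For 25 of the 78 genes, all 8 mutant libraries lay below all 4 WT libraries, against 8.86% of all tested genes. Set against WT 2 and WT 4 alone, 31 of the 78 genes had all 8 mutant libraries below both (14.5% of all tested genes). No gene of either subunit had a mutant group wholly above WT, with or without WT 1 and WT 3. Of all tested genes, 11.6% did in DMD-Null and 16% in mdx with all 12 libraries. Without WT 1 and WT 3 these shares were 21% and 24.4%.

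**Figure D3:**
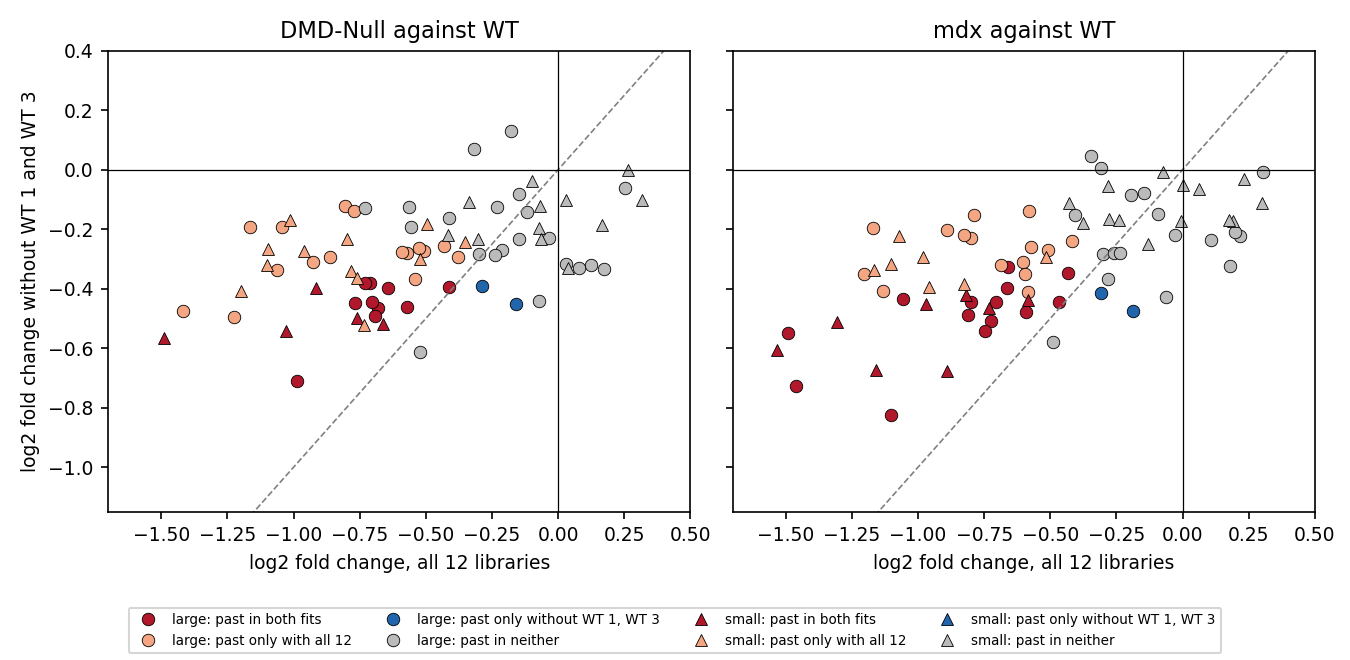
Log2 fold change of each of the 78 genes with all 12 libraries (x axis) and without WT 1 and WT 3 (y axis), for DMD-Null against WT (left) and mdx against WT (right). Circles are large-subunit and triangles small-subunit genes, dark red marks genes past the threshold in both fits, orange only with all 12, blue only without WT 1 and WT 3, and gray in neither; the dashed line is equality. Most points lie below 0 on both axes and above the dashed line, so that most falls are smaller without WT 1 and WT 3. The log2 fold changes shown use TMM scaling, and with all 12 libraries 10 of the 78 are positive in DMD-Null and 11 in mdx. With library totals alone, 35 of the 78 are positive in DMD-Null and 35 in mdx. Among the genes that fell with all 12 libraries, Mrpl10, Mrpl21, Mrpl42 and Mrps17 then turn positive in DMD-Null, and Mrpl10 and Mrpl21 in mdx. With limma on FPKM, Mrps5 in DMD-Null and Mrpl42 in mdx do so too.

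In the large subunit, the stalk and the core of bacterial origin were led by Mrpl12 (ENSMUSG00000039640, chromosome 11 from 120484613 to 120489065; positions are the table's and were read as GRCm38). Its level was 99.3, 86.3, 76.4 and 134.5 CPM in DMD-Null 1 to 4, 87.3, 69.1, 91.5 and 88.7 CPM in mdx 1 to 4, and 304.9, 120.6, 349.1 and 152.3 CPM in WT 1 to 4. All mdx libraries lay below WT, whereas DMD-Null 4 exceeded WT 2, and WT 1 and WT 3 were far above WT 2 and WT 4. Its log2 fold change was -1.22 in DMD-Null (SE 0.31, edgeR adjusted p = 0.0149) and -1.46 in mdx (SE 0.31, edgeR adjusted p = 0.0060). With WT 1 and WT 3 left out, the fall in mdx passed at -0.73 (edgeR adjusted p = 0.0262), but the value in DMD-Null, -0.49, did not (edgeR adjusted p = 0.118).

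Mrpl16 (chromosome 19 from 11770391 to 11774960), whose bacterial counterpart helps to seat transfer RNA, gave smaller changes with less spread. It had 29.1, 25.9, 23.5 and 28.7 CPM in DMD-Null, 25.5, 26.1, 27.9 and 24.4 CPM in mdx, and 47.5, 36.4, 51.8 and 35.9 CPM in WT. No mutant library reached WT. It fell by 0.68 in DMD-Null (SE 0.14, edgeR adjusted p = 0.0062) and fell by 0.73 in mdx (SE 0.14, edgeR adjusted p = 0.0039) on the log2 scale, and it fell in both without WT 1 and WT 3. Mrpl30 (chromosome 1 from 37890477 to 37898535) likewise had 63.7, 50.8, 54.8 and 70.6 CPM in DMD-Null, 55.7, 55.6, 63.2 and 56.5 CPM in mdx, and 99.8, 79.2, 122.7 and 85.8 CPM in WT. The groups did not overlap, and its log2 fold changes were -0.69 in DMD-Null (SE 0.16, edgeR adjusted p = 0.0087) and -0.75 in mdx (SE 0.16, edgeR adjusted p = 0.0053).

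Mrpl2, Mrpl4 and Mrpl28, all with bacterial counterparts, showed a wider gap between the WT libraries than between genotypes. Mrpl28 stood at 36.1 to 53.1 CPM in DMD-Null and 37.9 to 45.8 CPM in mdx, and at 139.8, 44.1, 143.0 and 49.9 CPM in WT 1 to 4. Its WT level was thus split into a high and a low pair, and the low pair overlapped both mutants. It fell by 1.16 in DMD-Null (edgeR adjusted p = 0.0282) and fell by 1.17 in mdx (edgeR adjusted p = 0.0243) with all 12 libraries. Neither value passed without WT 1 and WT 3, at -0.19 and -0.20 (edgeR adjusted p = 0.428 and 0.402). Mrpl4, which lines the exit tunnel, had log2 fold changes of -1.04 in DMD-Null and -1.20 in mdx, and of -0.19 and -0.35 without these libraries. Mrpl2, close to the catalytic centre, had -1.06 and -1.13, and -0.34 and -0.41 without them. The values without WT 1 and WT 3 did not pass (edgeR adjusted p = 0.42 and 0.124 for Mrpl4, 0.127 and 0.0656 for Mrpl2), whereas those with all 12 libraries did.

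Among the large-subunit genes with higher numbers, Mrpl55 (chromosome 11 from 59202486 to 59206002) fell under all 3 of the settings compared here. It had 29.9, 24.0, 22.4 and 35.6 CPM in DMD-Null, 24.5, 26.4, 25.2 and 27.1 CPM in mdx, and 56.0, 42.5, 76.1 and 47.1 CPM in WT. Every mutant library lay below every WT library, and WT 2 and WT 4 alone were also above them. Its log2 fold change was -0.99 in DMD-Null (SE 0.20, edgeR adjusted p = 0.0044) and -1.103 in mdx (SE 0.20, edgeR adjusted p = 0.0021). With WT 1 and WT 3 left out it was -0.71 (edgeR adjusted p = 0.0108) and -0.83 (edgeR adjusted p = 0.0047), and with library totals alone -0.53 (edgeR adjusted p = 0.0159) and -0.63 (edgeR adjusted p = 0.0064).

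Mrpl54 (chromosome 10 from 81264713 to 81266934) had the largest fall of the large subunit and the highest GC content of the 78 genes (60.4%). It stood at 22.6, 21.04, 19.7 and 29.1 CPM in DMD-Null, 20.9, 23.3, 22.6 and 21.1 CPM in mdx, and 89.7, 27.5, 94.5 and 35.4 CPM in WT. DMD-Null 4 overlapped WT 2, and the mdx libraries lay below WT. It fell by 1.42 in DMD-Null (SE 0.35, edgeR adjusted p = 0.0121) and fell by 1.49 in mdx (SE 0.35, edgeR adjusted p = 0.0085). Without WT 1 and WT 3 the values were -0.48 (edgeR adjusted p = 0.0608) and -0.55 (edgeR adjusted p = 0.0332), so the call in DMD-Null ended.

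Mrpl51 (chromosome 6 from 125191801 to 125196269) was read at 102.3, 87.0, 86.7 and 100.3 CPM in DMD-Null, 86.2, 98.3, 96.8 and 89.9 CPM in mdx, and 127.5, 122.0, 177.9 and 131.4 CPM in WT. WT 3 was the highest library, and all mutant libraries were below the other 3 as well. It fell by 0.57 in DMD-Null (SE 0.14, edgeR adjusted p = 0.0120) and fell by 0.59 in mdx (SE 0.14, edgeR adjusted p = 0.0091), and in both without WT 1 and WT 3. Mrpl45 (chromosome 11 from 97315716 to 97329920), which ties the tunnel exit to the inner membrane, had 40.2 to 59.2 CPM in DMD-Null, 46.2 to 54.0 CPM in mdx and 63.6 to 104.3 CPM in WT. It fell by 0.70 in DMD-Null (edgeR adjusted p = 0.0128) and fell by 0.71 in mdx (edgeR adjusted p = 0.0112), again in both fits. Mrpl58, a peptidyl-tRNA hydrolase that frees stalled ribosomes, fell by 0.93 in DMD-Null (edgeR adjusted p = 0.0179) and fell by 1.06 in mdx (edgeR adjusted p = 0.0091), and only the fall in mdx passed without WT 1 and WT 3 (-0.43, edgeR adjusted p = 0.0152).

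A minority of the large subunit ran the other way across the WT libraries. Mrpl32 (chromosome 13 from 14608184 to 14613165) had 14.8, 16.4, 13.4 and 12.7 CPM in DMD-Null, 15.9, 14.0, 16.4 and 15.9 CPM in mdx, and 9.97, 17.7, 8.98 and 17.6 CPM in WT 1 to 4. WT 1 and WT 3 were the lowest and WT 2 and WT 4 the highest of all 12 libraries. The log2 fold changes of 0.08 in DMD-Null (edgeR adjusted p = 0.782) and 0.20 in mdx (edgeR adjusted p = 0.465) did not pass, and without WT 1 and WT 3 they were -0.33 and -0.21, also short of the threshold. Mrpl50 spread most in this sense, with 15.1, 41.1, 18.1 and 34.7 CPM in WT 1 to 4. Mrpl15 and Mrpl18 fell in both mutants only once WT 1 and WT 3 were left out. Mrpl18 had 70.5, 58.0, 57.4 and 59.7 CPM in DMD-Null, 63.1, 56.4, 56.5 and 65.2 CPM in mdx, and 51.1, 85.0, 58.9 and 79.3 CPM in WT, and without WT 1 and WT 3 it fell by 0.45 in DMD-Null (edgeR adjusted p = 0.0119) and fell by 0.48 in mdx (edgeR adjusted p = 0.0088).

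**Figure D4:**
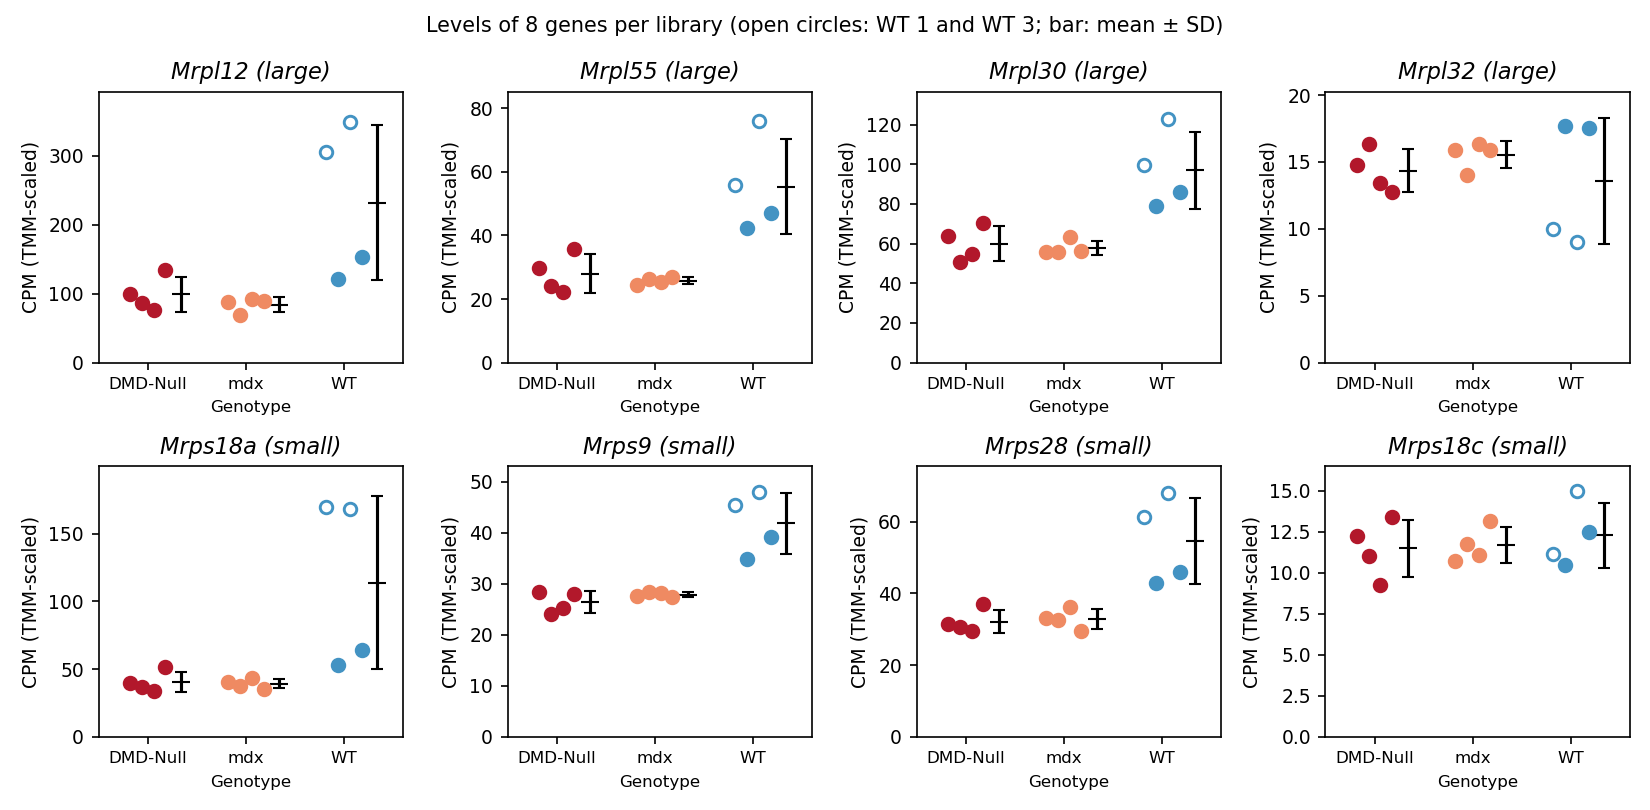
Level of 8 genes in each library, in TMM-scaled CPM on axes that start at 0, with open circles for WT 1 and WT 3 and bars for the mean ± SD of 4 libraries. Mrpl55, Mrpl30, Mrps9 and Mrps28 have all mutant libraries below all WT libraries, Mrpl12 and Mrps18a have WT 1 and WT 3 far above the rest, Mrpl32 has them at the bottom, and Mrps18c overlaps throughout. Panel titles give the subunit by symbol. With library totals alone the values of Mrpl30 and Mrps9 do not pass the test in either mutant, nor that of Mrps28 in mdx.

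The 3 genes related to one bacterial small-subunit protein differed in their values. Mrps18a (ENSMUSG00000023967, chromosome 17 from 46110986 to 46128910), which sits in the large subunit, had the largest fall of all 78 genes. It stood at 39.9, 36.7, 33.8 and 51.4 CPM in DMD-Null, 40.5, 37.9, 43.1 and 35.7 CPM in mdx, and 169.5, 52.9, 168.6 and 64.2 CPM in WT. All mutant libraries lay below WT, with DMD-Null 4 just under WT 2. Its log2 fold change was -1.49 in DMD-Null (SE 0.34, edgeR adjusted p = 0.0093) and -1.53 in mdx (SE 0.34, edgeR adjusted p = 0.0072), and without WT 1 and WT 3 it was -0.56 (edgeR adjusted p = 0.0304) and -0.61 (edgeR adjusted p = 0.0211).

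Mrps18b (chromosome 17 from 35910379 to 35916389) had 32.3, 33.0, 29.7 and 45.2 CPM in DMD-Null, 30.0, 31.0, 34.03 and 32.8 CPM in mdx, and 83.1, 43.8, 102.8 and 56.0 CPM in WT. Only DMD-Null 4 overlapped WT. It fell by 1.03 in DMD-Null (SE 0.24, edgeR adjusted p = 0.0095) and fell by 1.16 in mdx (SE 0.24, edgeR adjusted p = 0.0047), and in both without WT 1 and WT 3. Of its exons, 30.5% overlap Gm16279, so its counts are uncertain. Mrps18c (chromosome 5 from 100798627 to 100804471) had 12.3, 11.03, 9.26 and 13.4 CPM in DMD-Null, 10.7, 11.8, 11.1 and 13.2 CPM in mdx, and 11.2, 10.5, 15.0 and 12.5 CPM in WT, and the groups overlapped. Its log2 fold changes of -0.10 (SE 0.16) in DMD-Null and -0.07 (SE 0.16) in mdx did not pass (edgeR adjusted p = 0.638 and 0.719).

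Of the small-subunit core, Mrps9 (chromosome 1 from 42851233 to 42905683), a head protein with a bacterial counterpart, showed little spread. It had 28.3, 24.0, 25.3 and 28.1 CPM in DMD-Null, 27.5, 28.5, 28.2 and 27.4 CPM in mdx, and 45.5, 34.9, 48.0 and 39.1 CPM in WT. The groups did not overlap, and the mdx libraries differed among themselves by little more than 1 CPM. It fell by 0.66 in DMD-Null (SE 0.13, edgeR adjusted p = 0.0032) and fell by 0.58 in mdx (SE 0.13, edgeR adjusted p = 0.0058), and without WT 1 and WT 3 the values were -0.52 (edgeR adjusted p = 0.0049) and -0.44 (edgeR adjusted p = 0.0118). Its GC content of 38.6% is the lowest of the 78 genes. With library totals alone the values were -0.21 (edgeR adjusted p = 0.0995) and -0.13 (edgeR adjusted p = 0.264).

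Mrps28 (chromosome 3 from 8802146 to 8923918) had 31.5, 30.7, 29.5 and 37.0 CPM in DMD-Null, 33.1, 32.5, 36.3 and 29.6 CPM in mdx, and 61.3, 43.0, 67.95 and 45.9 CPM in WT. No mutant library reached WT. It fell by 0.76 in DMD-Null (SE 0.16, edgeR adjusted p = 0.0057) and fell by 0.73 in mdx (SE 0.16, edgeR adjusted p = 0.0063), and in both without WT 1 and WT 3. With library totals alone the value passed in DMD-Null (-0.29, edgeR adjusted p = 0.0493) and not in mdx (-0.26, edgeR adjusted p = 0.0685). Mrps7, a head protein with a bacterial counterpart, fell by 0.91 in DMD-Null (edgeR adjusted p = 0.0119) and fell by 0.97 in mdx (edgeR adjusted p = 0.0080), likewise in both fits. Mrps6, of the platform, stood at 8.69 to 13.6 CPM in DMD-Null, 8.94 to 10.7 CPM in mdx and 14.9 to 23.9 CPM in WT, and without WT 1 and WT 3 its fall passed in mdx (-0.68, edgeR adjusted p = 0.0180) and not in DMD-Null (-0.52, edgeR adjusted p = 0.0575).

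Mrps11 (chromosome 7 from 78783119 to 78792989), also of the platform, had 13.9, 14.5, 11.5 and 16.4 CPM in DMD-Null, 13.3, 11.96, 14.3 and 12.7 CPM in mdx, and 44.0, 16.4, 48.9 and 20.1 CPM in WT. DMD-Null 4 lay just under WT 2. Its log2 fold changes were -1.20 in DMD-Null (SE 0.31, edgeR adjusted p = 0.0149) and -1.31 in mdx (SE 0.31, edgeR adjusted p = 0.0091), and without WT 1 and WT 3 the fall passed in mdx only (-0.51, edgeR adjusted p = 0.0369). It shares its start region head to head with Mrpl46 on the opposite strand, which covers 7.97% of its exons. Mrps12, the decoding-centre protein, fell by 1.02 in DMD-Null (edgeR adjusted p = 0.0353) and fell by 1.07 in mdx (edgeR adjusted p = 0.0255) with all 12 libraries, and its values without WT 1 and WT 3 were -0.17 and -0.22 (edgeR adjusted p = 0.527 and 0.374).

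The mitochondria-specific small-subunit genes Mrps26, Mrps27 and Mrps34 followed the same course. Mrps26 had a log2 fold change of -1.095 in DMD-Null (edgeR adjusted p = 0.0249) and -1.17 in mdx (edgeR adjusted p = 0.0168). Mrps27, a pentatricopeptide repeat protein, had -0.80 in DMD-Null (edgeR adjusted p = 0.0323) and -0.96 in mdx (edgeR adjusted p = 0.0137), and Mrps34, which is needed for a stable small subunit, had -1.102 in both (edgeR adjusted p = 0.0219 and 0.0190). None of these 6 values passed without WT 1 and WT 3, and they ran from -0.23 for Mrps27 in DMD-Null to -0.39 for Mrps27 in mdx. The exons of Mrps34 overlap those of Mapk8ip3 and Nme3 over 77.8% of their length. Mrps21, the most abundant small-subunit gene, fell by 0.96 in DMD-Null (edgeR adjusted p = 0.0241) and fell by 0.98 in mdx (edgeR adjusted p = 0.0191), also with all 12 libraries only. Mrps35, the least abundant, had values of -0.06 and -0.01 that did not pass (edgeR adjusted p = 0.743 and 0.973).

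The symbols that mislead were read separately. Mrps30 had 28.8 to 31.7 CPM in DMD-Null, 28.3 to 33.2 CPM in mdx and 28.2 to 34.1 CPM in WT, with log2 fold changes of -0.07 (SE 0.11, edgeR adjusted p = 0.636) in DMD-Null and 0.00 (SE 0.11, edgeR adjusted p = 0.992) in mdx. Its direction depended on the setting, with a fall of 0.75 in DMD-Null and of 0.79 in mdx under the GC correction, and with library totals alone a rise in mdx. Mrps36 fell by 0.76 in DMD-Null (SE 0.20, edgeR adjusted p = 0.0173) and fell by 0.82 in mdx (SE 0.20, edgeR adjusted p = 0.0109). Its fall also passed in mdx once WT 1 and WT 3 were left out (-0.42, edgeR adjusted p = 0.0360) but its value in DMD-Null did not (-0.36, edgeR adjusted p = 0.0664). With these genes placed by structure, 27 of 51 large-subunit and 15 of 26 small-subunit genes fell in DMD-Null, and 13 and 4 without WT 1 and WT 3. In mdx 30 and 13 fell, and 17 and 6 without WT 1 and WT 3. Of all tested genes, 15.6% fell in DMD-Null and 20.1% in mdx, and 9.84% and 10.9% without these libraries.

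The genes were also split by their number, as a rough stand-in for evolutionary origin. Lower numbers were taken as the range of the bacterial proteins. Number alone does not settle the origin of each gene, and the higher-numbered class holds Mrps36, named above as part of another complex. Among 44 genes with lower numbers, 25 fell in DMD-Null (median log2 fold change -0.50) and 24 in mdx (-0.47). Among 34 genes with higher numbers, 18 fell in DMD-Null (-0.56) and 20 in mdx (-0.59). Without WT 1 and WT 3, 10 of the 44 fell in DMD-Null (-0.29) and 14 in mdx (-0.28). Of the 34, 7 (-0.27) and 10 (-0.32) fell in that fit, so that the order of the medians turned in DMD-Null. The shares over all tested genes are those given above for each fit. The difference between these classes was not tested.

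Single libraries decided some of these calls, all with the direction kept. In DMD-Null, Mrpl12 and Mrps11 passed with all libraries and not without DMD-Null 3 (edgeR adjusted p = 0.0524 and 0.0518). Mrpl28, Mrpl4, Mrps21, Mrps26, Mrps27 and Mrps34 lost the call in DMD-Null without DMD-Null 1, DMD-Null 2, DMD-Null 3, WT 1 or WT 3, with edgeR adjusted p from 0.0561 to 0.0944. Mrpl2 lost it without DMD-Null 2, DMD-Null 3 or WT 3 (edgeR adjusted p = 0.0563, 0.06 and 0.051), Mrps36 without DMD-Null 2 or DMD-Null 3 (edgeR adjusted p = 0.0546 and 0.0593) and Mrps6 without DMD-Null 2 (edgeR adjusted p = 0.0505). In mdx, Mrpl28 lost it without any 1 of the mdx libraries, WT 1 or WT 3 (edgeR adjusted p from 0.0514 to 0.0727), Mrps21 without mdx 1, mdx 4 or WT 3 and Mrps34 without mdx 4, WT 1 or WT 3 (edgeR adjusted p from 0.0505 to 0.0558). The falls of Mrpl16, Mrpl30, Mrpl51, Mrpl55, Mrps18a, Mrps18b, Mrps28 and Mrps9 passed in both mutants whichever library was left out. With library totals alone, however, Mrpl16, Mrpl30, Mrpl51 and Mrps9 passed in neither mutant, and Mrps28 not in mdx. Mrpl16 then had -0.22 in DMD-Null (edgeR adjusted p = 0.102) and -0.26 in mdx (edgeR adjusted p = 0.0581). Mrpl51 had -0.12 in DMD-Null (edgeR adjusted p = 0.419) and -0.14 in mdx (edgeR adjusted p = 0.341).

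GC content went along with the size of the change. Across the 78 genes, Spearman's rho between GC content and the log2 fold change was -0.681 in DMD-Null and -0.658 in mdx, against -0.465 and -0.487 across all tested genes, as a description of genes that share the same libraries. It was -0.144 and -0.243 without WT 1 and WT 3, against 0.0405 and -0.0485. Of the 39 genes at or above the members' median GC content of 49.8%, 28 fell in DMD-Null (median -0.77) and 30 in mdx (-0.81). Of the 39 below it, 15 fell in DMD-Null (-0.29) and 14 in mdx (-0.30). In the fit lacking WT 1 and WT 3, 10 of the upper 39 fell in DMD-Null (-0.31) and 15 in mdx (-0.35), and of the lower 39, 7 (-0.27) and 9 (-0.27). When each library's counts were corrected for GC content, 38 large-subunit and 21 small-subunit genes fell in DMD-Null (22.3% of all tested genes) and 42 and 21 in mdx (26.7%), and none rose. The members' median GC content lay close to that of all tested genes (50.5%).

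**Figure D5:**
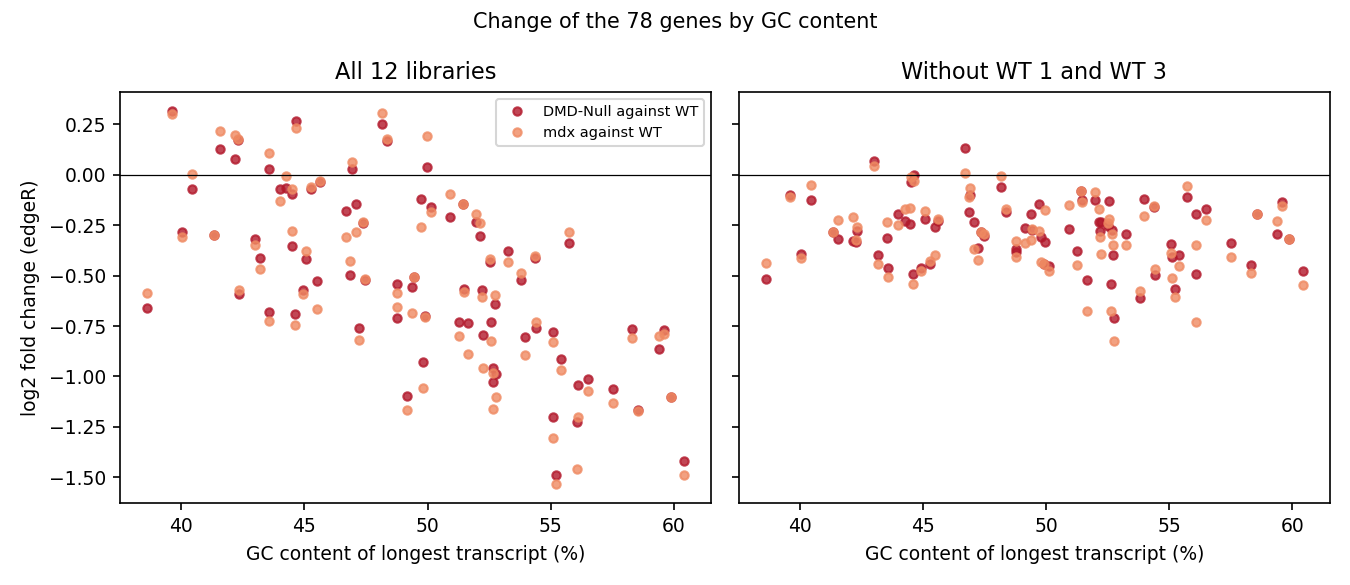
Log2 fold change (TMM scaling) of each of the 78 genes against the GC content of its longest annotated transcript in percent, with all 12 libraries (left) and without WT 1 and WT 3 (right); dark red points are DMD-Null against WT and orange points mdx against WT. With all 12 libraries the values run lower toward high GC content, and without WT 1 and WT 3 they lie between -0.83 and 0.13 over the whole range.

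A small group fell under several settings at once. Lower with all 12 libraries, without WT 1 and WT 3 and with library totals alone were 5 genes in DMD-Null, namely Mrpl55, Mrps18a, Mrps18b, Mrps28 and Mrps7, or 5 of 78 members against 3.76% of all tested genes. In mdx there were 11 of 78, against 4.58% of all tested genes, namely Mrpl12, Mrpl34, Mrpl37, Mrpl54, Mrpl55, Mrpl58, Mrps11, Mrps18a, Mrps18b, Mrps6 and Mrps7. All of these also fell with the GC correction.

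Overlapping genes touch some of these values. It is not given whether counting used the strand, and some overlaps lie on the same strand, where strand cannot separate the reads. The exons of 33 of the 78 genes overlap another gene, over more than 25% of their length in 7. Mrpl53 is the extreme, with 88.0% shared mainly with Gm42688 on the same strand, and it was also the most variable member within both mutants. Of the 45 genes with no overlap, 26 fell in DMD-Null with a median of -0.54, against 17 of 33 with overlap and a median of -0.52. Without WT 1 and WT 3 the counts in DMD-Null were 12 of 45 and 5 of 33, with medians of -0.28 in both. In mdx, 25 of the 45 fell with a median of -0.57, against 19 of the 33 with a median of -0.51. Without WT 1 and WT 3 they were 14 (-0.26) and 10 (-0.34). The shares over all tested genes are those given above for each fit, and the difference between these classes was not tested.

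No difference between DMD-Null and mdx muscle was detected in these genes. Between the mutants, 0 of 78 genes passed, where 2 of all tested genes fell (0.0176%) and 0 rose, and none of the 78 had an unadjusted p under 0.05 or groups without overlap, which 1.02% of all tested genes had in the lower and 1.22% in the higher direction. DESeq2 and limma also called none of the 78. The median log2 difference was 0.02 for the large and 0.00 for the small subunit, and single values ran from -0.16 to 0.24. The largest was that of Mrpl12 (0.24, SE 0.31, edgeR adjusted p = 1). The SE of these differences ran from 0.11 to 0.34, and a p above the threshold does not show that the genotypes are alike.

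The other genes of the mitoribosome and its supply were read beside the 78. Among 5 mitoribosomal proteins with other symbols, Gadd45gip1, Chchd1 and Dap3 fell in DMD-Null and these and Aurkaip1 in mdx. Gadd45gip1 led with -1.41 in DMD-Null (edgeR adjusted p = 0.0259) and -1.58 in mdx (edgeR adjusted p = 0.0146), and neither passed without WT 1 and WT 3. Chchd1 had 38.6, 34, 30.4 and 38.1 CPM in DMD-Null, 30.6, 32.9, 34.03 and 34.3 CPM in mdx, and 44.5, 43.6, 53.0 and 48.3 CPM in WT, with no overlap, and it fell by 0.42 in DMD-Null (edgeR adjusted p = 0.0220) and fell by 0.52 in mdx (edgeR adjusted p = 0.0077) and in both without WT 1 and WT 3. Ptcd3 did not pass with all 12 libraries (0.04 and 0.13), and without WT 1 and WT 3 it fell in DMD-Null (-0.45, edgeR adjusted p = 0.0357).

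Of 26 mitoribosome assembly factors, 8 fell in DMD-Null and 12 in mdx and none rose. The largest fall was that of Rpusd3, a pseudouridine synthase, at -1.51 in DMD-Null (edgeR adjusted p = 0.0097) and -1.38 in mdx (edgeR adjusted p = 0.0124). With WT 1 and WT 3 left out, 4 fell in each. For this and the following lists, the share of all tested genes that fell was 15.6% in DMD-Null and 20.1% in mdx. Without WT 1 and WT 3 it was 9.84% and 10.9%. Among 13 translation factors, 5 fell in DMD-Null and 4 in mdx, with Tufm, the elongation factor that delivers transfer RNA, at -0.99 (adjusted p = 0.0317, edgeR) in DMD-Null and -1.003 (edgeR adjusted p = 0.0267) in mdx. Of 15 mitochondrial aminoacyl-tRNA synthetases that were tested, 6 fell in DMD-Null and 7 in mdx, with Aars2, which charges alanine, at -1.36 in DMD-Null (edgeR adjusted p = 0.0165) and -1.53 in mdx (edgeR adjusted p = 0.0088). Of 19 genes of mitochondrial transcription and RNA handling, 6 fell in each mutant, with Tbrg4 at -1.26 in DMD-Null (edgeR adjusted p = 0.0111) and -1.33 in mdx (edgeR adjusted p = 0.0075). With WT 1 and WT 3 left out, 5 translation factors, 1 synthetase and 7 of the RNA genes fell in DMD-Null, and 4, 2 and 7 in mdx. In that fit Tufm had -0.20 in DMD-Null (edgeR adjusted p = 0.401) and -0.21 in mdx (edgeR adjusted p = 0.363), and Aars2 had -0.44 (edgeR adjusted p = 0.168) and -0.61 (edgeR adjusted p = 0.0574), none past the threshold. Rpusd3 kept its call in DMD-Null (-0.57, edgeR adjusted p = 0.0476) and lost it in mdx (-0.44, edgeR adjusted p = 0.109). Tbrg4 kept its call in DMD-Null (-0.50, edgeR adjusted p = 0.0461) and in mdx (-0.57, edgeR adjusted p = 0.0244).

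The ribosomal RNAs, which poly(A) libraries capture only in part, gave a different picture from the proteins. The small-subunit RNA mt-Rnr1 was read at 944.0, 724.6, 701.2 and 663.3 CPM in DMD-Null, 921.5, 787.2, 946.6 and 923.4 CPM in mdx, and 520.1, 2220, 978.5 and 1243 CPM in WT 1 to 4. WT 1 was the lowest and WT 2 the highest of all libraries. It did not pass with all 12 libraries (-0.71 in DMD-Null and -0.47 in mdx, edgeR adjusted p = 0.118 and 0.258), whereas with WT 1 and WT 3 left out it fell by 1.22 in DMD-Null (edgeR adjusted p = 0.0015) and fell by 0.98 in mdx (edgeR adjusted p = 0.0052). Of the 13 messages that the mitoribosome translates, 2 fell in each mutant with all 12 libraries and 10 in each without WT 1 and WT 3. The shares of all tested genes that fell were 15.6% in DMD-Null and 20.1% in mdx with all 12, and 9.84% and 10.9% without them.

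Of the nuclear genes of the respiratory chain, 58 of 84 fell in DMD-Null (median -0.70) and 64 of 84 in mdx (-0.76), and 32 and 36 without WT 1 and WT 3. Of the cytosolic ribosomal protein genes, 14 of 78 fell in DMD-Null (median -0.39) and 33 of 78 in mdx (-0.52), and 1 rose in each. Their medians without WT 1 and WT 3 were -0.04 and -0.11, with 0 lower in DMD-Null and 1 in mdx, while the mitoribosomal medians were -0.28 and -0.29. Of all tested genes, 15.6% fell in DMD-Null and 20.1% in mdx with all 12 libraries, and 9.84% and 10.9% without WT 1 and WT 3. The differences between these lists were not tested.

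Cell type markers moved with genotype as well. The 10 macrophage markers summed to 446.0 to 886.2 CPM in DMD-Null, 736.6 to 937.8 CPM in mdx and 105.9 to 209.5 CPM in WT, and the 8 fibroblast markers to 3213 to 4233, 3861 to 4377 and 1032 to 1987 CPM in the same order. The 10 fibre markers summed to 119600 to 171200 CPM in DMD-Null, 114400 to 156300 CPM in mdx and 128900 to 397800 CPM in WT, where WT 1 and WT 3 held the highest sums. The 10 liver markers, which muscle should lack, summed to 46.9 to 227.8 CPM in DMD-Null, 97.6 to 174.1 CPM in mdx and 689.0 to 1059 CPM in WT. The 6 endothelial markers summed to 287.2 to 340.7, 293.3 to 344.8 and 331.6 to 540.4 CPM, and the 5 adipocyte markers to 1.299 to 9.79, 2.52 to 3.66 and 3.44 to 17.3 CPM. No marker of these lists was at 0 across a genotype. Their part in the mitoribosomal values was not tested.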

How the data were processed

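Counts per gene and FPKM were deposited by the authors as a single table of 12 libraries. The submitters' processing notes name cutadapt 1.10, FastQC 0.10.1, HISAT2 2.0 and StringTie 1.3.4, with no roles, and the build GRCm39. Of the 30155 genes shared with the GRCm38 annotation, 99.70% have the same start or end there, so positions were read as GRCm38. The strand setting of the counting was not stated in these sources. RNA had a quality number above 7 and libraries came from a stranded poly(A) kit, per the labels' protocols.

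CPM are per 1e6 reads. Genes at or above 1 FPKM in at least 4 libraries (11376, with 18863 removed) were tested on the deposited counts with edgeR 4.0.16 (TMM factors, quasi-likelihood test, 1 model of all 12 libraries, Benjamini-Hochberg adjustment over all tested genes, threshold 0.05), in R 4.3.3. The fit was tested on simulated data. Those data held neither the split among the WT libraries nor the lean to GC content, so the test cannot speak to either. DESeq2 1.42.0 and limma 3.58.1 (on log2(FPKM + 1) with the authors' deposited FPKM) were alternatives, as were other filters and scalings, a GC correction by loess (span 0.5), libraries left out and a replicate block. The GC correction used the longest annotated transcript of each gene. For the GC correction, the GC correlation of each library and the correlations between libraries, CPM were log-transformed with a prior count of 2. The log2 CPM shown for the 78 genes and their SD were taken without a prior count. Python 3.11.15 with pandas 2.3.3 made the summaries.

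The members, the gene lists and the tests were chosen with earlier results of these data known. Genes named in the text were, per comparison and subunit, the 4 largest changes past the threshold, up to 4 past it with and without WT 1 and WT 3, the 2 highest and the lowest in FPKM, the members with misleading symbols, mitoribosomal proteins with other symbols and 1 gene from each related list. Mrpl15, Mrpl18, Mrpl45, Mrpl50, Mrpl53, Mrpl58, Mrps7, Mrps10, Mrps12, Mrps22, the genes listed under several settings and those whose sign depended on the scaling were named after their values were seen.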

Additional observations from a re-analysis of the deposited data

Results flagged for a closer look

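Over the 24 named genes and the summed levels of both subunits, 78 groups of 4 libraries were checked, and 3 held a value far from the other 3. Chance alone would give a few such values in a family of this size. Mrpl30 had 63.23 CPM in mdx 3, against 55.6 to 56.46 CPM in the other mdx libraries. Mrpl51 had 177.9 CPM in WT 3, against 122.0 to 131.4 CPM in the other WT libraries. Mrps26 had 38.36 CPM in DMD-Null 4, against 26.58 to 27.56 CPM in the other DMD-Null libraries. WT 3 and DMD-Null 4 are among the 3 libraries whose reads leaned to genes of high GC content, and the part of this in the values was not tested.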

How the results depend on the processing

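The cause of each change below was not tested. For DMD-Null against WT, 15 large-subunit genes fell without a filter. With library totals alone 4 large-subunit and 5 small-subunit genes fell and 1 small-subunit gene rose. With limma on log2(FPKM + 1), 3 large-subunit genes fell and 2 rose, and 4 small-subunit genes fell and 4 rose, with the same counts at log2(FPKM + 0.1). Of all 11376 tested genes, 4962 rose and 565 fell at the pseudocount of 1. Without WT 1 and WT 3, 12 and 5 fell, and with the GC correction added (chosen after seeing the data) 21 and 10. Genes past the threshold numbered 1483 at a mean FPKM of at least 5, 5527 with limma at a pseudocount of 1 and 5430 at 0.1. For mdx against WT, library totals gave 8 large-subunit and 7 small-subunit genes lower and 2 small-subunit genes higher. Limma gave 6 lower and 2 higher in the large and 5 lower and 5 higher in the small subunit, and 7, 2, 5 and 5 at the smaller pseudocount, while 5049 of all tested genes rose and 672 fell at the larger one. Without WT 1 and WT 3, 16 and 8 fell and 2649 genes passed, against 1701 at the stricter filter. Between DMD-Null and mdx, 1 gene passed at the stricter filter, 6 with DESeq2 and 1 without WT 1, WT 3 and DMD-Null 4 (chosen after seeing the data). Of all genes past the threshold, 3360 of 3934 rose in DMD-Null and 3350 of 4057 in mdx with library totals, against 1471 of 3241 and 1709 of 4001 with TMM. Direction turned for Mrpl32 with the GC correction (-0.39 in DMD-Null, -0.35 in mdx), for Mrps30 with limma in DMD-Null (0.32 and 0.40) and with the GC correction in mdx (-0.79), and for Mrps18c with limma in mdx (0.37 and 0.41). With library totals alone it also turned for Mrps18c (0.34 in DMD-Null, 0.37 in mdx) and Mrps35 (0.34 and 0.40). Mrps30 turned there in DMD-Null (0.36). None of these values with library totals passed the threshold. Among the genes that fell with all 12 libraries, the sign turned with limma at both pseudocounts for Mrpl10, Mrpl21, Mrpl42, Mrps17 and Mrps5 in DMD-Null and for Mrpl10, Mrpl21 and Mrpl42 in mdx, and with library totals for Mrpl10, Mrpl21, Mrpl42 and Mrps17 in DMD-Null and for Mrpl10 and Mrpl21 in mdx. With 1 replicate left out at a time, genes past the threshold ran from 1707 to 6404 in DMD-Null against WT, from 2300 to 6874 in mdx against WT and from 1 to 2 between the mutants. Large-subunit genes lower ran from 9 to 32 in DMD-Null and from 16 to 32 in mdx, and small-subunit genes lower from 6 to 19 and from 11 to 19. Large-subunit genes higher ran from 0 to 0 in DMD-Null and from 0 to 1 in mdx, and small-subunit genes higher from 0 to 2 and from 0 to 1. Deviations of same-numbered libraries had correlations from -0.587 to 0.217 over 12 pairs, and those of other pairs from -0.762 to 0.688. Both ends of the latter range join DMD-Null 4 with a WT library. A weaker link by number could be hidden beside such values, so this check cannot tell whether the numbers pair libraries. With the replicate block, 1869 genes passed in DMD-Null against WT, with 13 large-subunit and 8 small-subunit genes lower, 2377 in mdx against WT, with 18 and 11 lower, and 0 between the mutants.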
